A study of Homo sapiens with 18 samples.

Results

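The WAPL knockout clone WaplKO_3.3 was compared directly with the SCC4 knockout clone SCC4KO across all genes. The comparison used the 3 WaplKO_3.3 and 3 SCC4KO samples of the 18 samples of the series, and 12472 of the 20329 genes in the files were tested. All samples were polyadenylated RNA of HAP1 cells, a near-haploid human line that descends from the chronic myeloid leukaemia line KBM-7 and carries impaired p53. The ΔWAPL cells were made with CRISPR and insertion of a Blasticidine cassette, and the ΔSCC4 cells with CRISPR and insertion of a Puromycin cassette. Each knockout group was 1 clone, so an effect of the lost gene and a property of the clone cannot be told apart. Also read beside the comparison were 3 HAP1 control samples of set A, 3 samples of the double knockout DKO_3.3, in which SCC4 was removed from ΔWAPL cells, and the separate ΔWAPL clone WaplKO_1.14 with the 3 HAP1 controls of set B. Nothing in the sources used here says that the samples of a group were separate cultures, so the p-values measure only the spread between these samples, which may be technical.

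Cohesin is a ring-shaped complex of SMC1, SMC3 and RAD21 with a STAG subunit, and it holds DNA inside the ring. SCC4, also called MAU2, works with SCC2 (NIPBL) to load cohesin onto chromatin, where the complex enlarges loops until it meets CTCF. WAPL opens the ring and takes cohesin off DNA again, so the clones lack factors at opposite ends of the cohesin cycle.

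The guides that define the knockouts are shown because they fix where each gene was cut, with the genomic PAM in capitals after the 19 bases that match GRCh37. The WAPL guide matched chr10:88259864-88259882 on the plus strand, in the coding part of exon 3 of 19 of WAPL, which is read from the minus strand. The SCC4 guide matched chr19:19431849-19431867 on the minus strand, in the coding part of exon 1 of 19 of MAU2, which is read from the plus strand. Each guide had 1 match in the genome.
WAPL guide: cgttccatagtatcctgtaTGG
SCC4 guide: tacgggcctcgatgcgctgCGG

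The count on genes was 14212412 to 20711127 per sample in WaplKO_3.3 and 10007646 to 15496671 in SCC4KO. Levels are given as CPM (counts scaled to library size) after TMM normalization over all 18 samples. The samples of each group differed from each other along gene GC content: the deviation of a sample from its group mean had a Spearman correlation with GC across genes of -0.58 to 0.69 in WaplKO_3.3 and -0.41 to 0.71 in SCC4KO. The log2 fold change between the groups also followed GC (Spearman rho = -0.36 across 12333 genes). The median GC content was 43.1% in genes higher in WaplKO_3.3, 53.3% in genes higher in SCC4KO and 47.8% in all genes tested. A correction for GC within each sample brought the correlation to -0.01. For the gene lists and the comparison of clones, counts with that correction are given beside those that it moved by more than 1.5 times. The part of GC in them was not tested. Over all 12472 genes tested, the correction also raised the share called from 22.8% to 33.3%. By direction, 1350 genes became 2023 for those higher in WaplKO_3.3, and 1496 became 2135 for those higher in SCC4KO. Corrected list counts are therefore to be read beside these larger totals, and not beside the uncorrected shares.

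The targeted genes were read first. MAU2 (ENSG00000129933) stood at 59.2, 52.1 and 57 CPM in the WaplKO_3.3 samples and at 0.975, 0.509 and 0.622 CPM in the SCC4KO samples, 6.25 ± 0.22 higher in WaplKO_3.3 on the log2 scale (standard error, SE; adjusted p = 1.25e-10, edgeR's quasi-likelihood test). WAPL (ENSG00000062650) stood at 50.2, 40.5 and 40.3 CPM in WaplKO_3.3 and at 68, 87.3 and 100 CPM in SCC4KO, a log2 fold change of -0.97 ± 0.16 (adjusted p = 0.000534). Both genes therefore pointed the way of the labels, with MAU2 RNA almost gone in SCC4KO and WAPL RNA reduced in WaplKO_3.3. The HAP1 controls of set A held 78.1 to 121 CPM of WAPL and 61.3 to 72.7 CPM of MAU2.

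Between the clones, 2846 genes passed an adjusted p of 0.05, which was 22.8% of those tested. Of these, 1350 genes (10.8%) were higher in WaplKO_3.3 and 1496 genes (12%) were higher in SCC4KO. The differences were mostly modest in size, with a median of 0.70 on the log2 scale among the genes called. A difference of at least 2-fold was found in 381 of the genes higher in WaplKO_3.3 and in 475 of those higher in SCC4KO, and one of at least 8-fold in 69 and 74. The samples of the groups did not overlap in CPM in 4644 genes (37.2%). The extreme genes, seen at the top and bottom of the plot of all genes, lay mostly at low and middle levels.

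**Figure D1:**
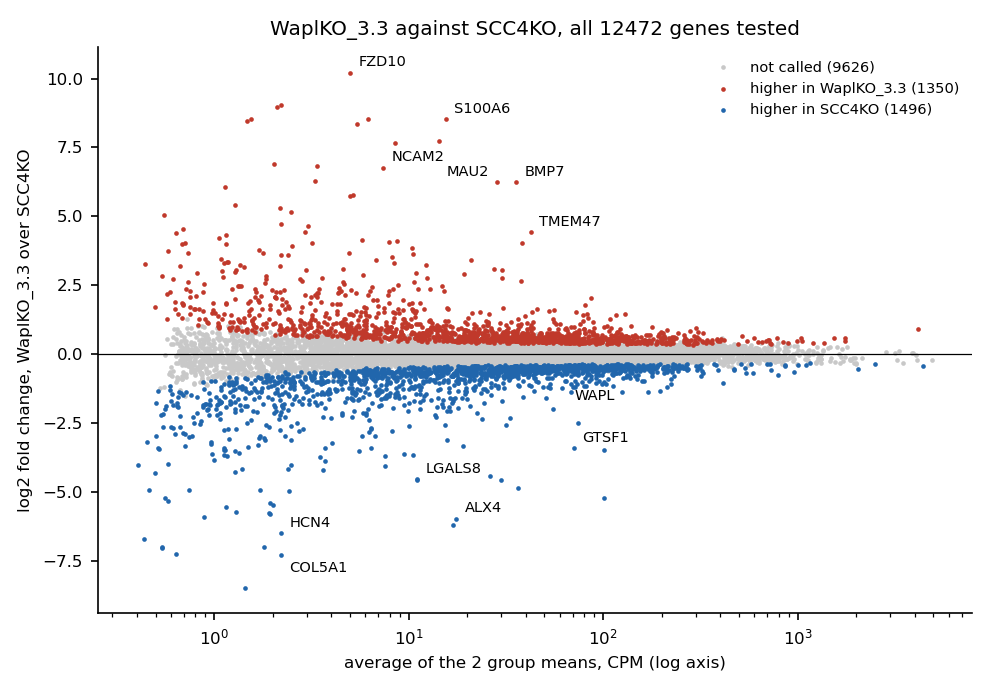
Log2 fold change of WaplKO_3.3 over SCC4KO (y axis) against the average of the group means in CPM (x axis, log scale) for each of the 12472 genes tested, with the 1350 genes higher in WaplKO_3.3 in red, the 1496 higher in SCC4KO in blue and the rest in grey. The fold changes at the extremes of low genes are fitted values that depend on the default prior count of the fit, and FZD10 at the top had no count in SCC4KO.

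The genes most in favour of WaplKO_3.3 were a mixture of receptors, secreted signals, transporters and adhesion molecules that were nearly silent in SCC4KO. FZD10, a Frizzled receptor for WNT ligands, had 9.52, 10.7 and 9.7 CPM in WaplKO_3.3 and no count in SCC4KO, at least 131-fold higher against a floor of 3 counts over the group (adjusted p = 1.7e-08). BMP7, a bone morphogenetic protein, had 67.8, 68.4 and 75.2 CPM against 1.04, 0.814 and 0.898 CPM, a log2 fold change of 6.23 ± 0.20 (adjusted p = 4.19e-11). A WNT receptor and a BMP ligand were thus both well expressed in WaplKO_3.3 and low or not detected in SCC4KO.

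GABRA5, a subunit of the GABA-A receptor, had 13.1, 12.1 and 11.9 CPM in WaplKO_3.3 against 0, 0 and 0.0691 CPM in SCC4KO (ratio 493, interval 88.1 to 19502). CHRM3, the muscarinic acetylcholine receptor M3, had 11.4, 12.4 and 8.9 CPM against 0, 0 and 0.0691 CPM (ratio 434, interval 77.6 to 17180). NCAM2, a neural cell adhesion molecule, had 17.1, 14.8 and 12.1 CPM against 0.195, 0.102 and 0.0691 CPM, a log2 fold change of 6.77 ± 0.33. These proteins are found in the nervous system, and no WaplKO_3.3 sample came near any SCC4KO sample. OLFM3, a secreted olfactomedin, had 20.1, 16.5 and 14 CPM against 0.065, 0 and 0.138 CPM (ratio 227, interval 77.6 to 1105).

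S100A6, a calcium-binding protein, was the most abundant of the genes that were close to 0 in SCC4KO apart from MAU2 and BMP7, with 28.1, 28.9 and 35.8 CPM against 0.065, 0.204 and 0 CPM (ratio 406, interval 139 to 1971). SLC17A9, the vesicular nucleotide transporter, had 26, 26.6 and 32.8 CPM against 0.13, 0.204 and 0.0691 CPM, and SLC19A3, a thiamine transporter, had 6.18, 6.44 and 6.98 CPM against 0.13, 0.102 and 0 CPM. The small GTPase RAB32 stood at 3.34 to 5.05 CPM in WaplKO_3.3 and reached 0.102 CPM in a single SCC4KO sample. MT1M, a metallothionein, and DCAF12L2 had no count in SCC4KO and were at least 54.8-fold and 58.3-fold higher in WaplKO_3.3. The adjusted p of each gene of this group was at or below 5.45e-07, and the intervals and floors cover counting error only.

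In the other direction the leading genes included matrix proteins, ion channels, transcription factors and a sarcomere gene. COL5A1, a chain of type V collagen, had 5.4, 3.87 and 3.94 CPM in SCC4KO and 0.0498, 0 and 0 CPM in WaplKO_3.3, a ratio of 221 (interval 39.2 to 8777). AMBN, the enamel matrix protein ameloblastin, had 36.5, 32.4 and 31.4 CPM in SCC4KO and 0.598, 0.495 and 0.199 CPM in WaplKO_3.3, a log2 fold change of -6.21 ± 0.25. Both matrix genes were detected in every SCC4KO sample, COL5A1 at a much lower level than AMBN, and were under 1 CPM in every WaplKO_3.3 sample. HCN4, a pacemaker channel, had 4.68, 4.38 and 4.08 CPM against 0, 0.0707 and 0.0664 CPM (ratio 108, interval 29.5 to 899). KCNQ5, a voltage-gated potassium channel, had 4.16 to 4.84 CPM against 0.199 to 0.283 CPM (log2 fold change -4.17 ± 0.29).

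ALX4, a homeodomain transcription factor of limb and skull development, had 38.1, 32.6 and 33.2 CPM in SCC4KO and 0.548, 0.495 and 0.598 CPM in WaplKO_3.3 (-5.97 ± 0.22). IRF8, an interferon regulatory factor of myeloid cells, had 5.2, 4.78 and 4.15 CPM against 0.0498, 0.283 and 0.133 CPM (-4.97 ± 0.37). MYOM1, which encodes the M-band protein myomesin, was the most abundant gene of this group, with 189, 199 and 198 CPM in SCC4KO against 6.18, 4.46 and 4.92 CPM in WaplKO_3.3 (-5.23 ± 0.16, adjusted p = 4.19e-11). In WaplKO_3.3, IRF8 was thus near the limit of detection, with 7 counts over the samples. ALX4 was low but steady, with 27 counts, and MYOM1 was higher than both. The others were ZNF385D (-5.49 ± 0.39), the actin-like gene ACTL8 (-4.86 ± 0.18), the tryptophan-degrading enzyme IDO1 (-4.57 ± 0.21), SHISAL1 (-4.57 ± 0.19), the galectin LGALS8 (-4.53 ± 0.25), the short-chain dehydrogenase DHRS2 (-4.43 ± 0.19) and the kinase PAK6 (-4.22 ± 0.28), with adjusted p-values at or below 1.06e-07.

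**Figure D2:**
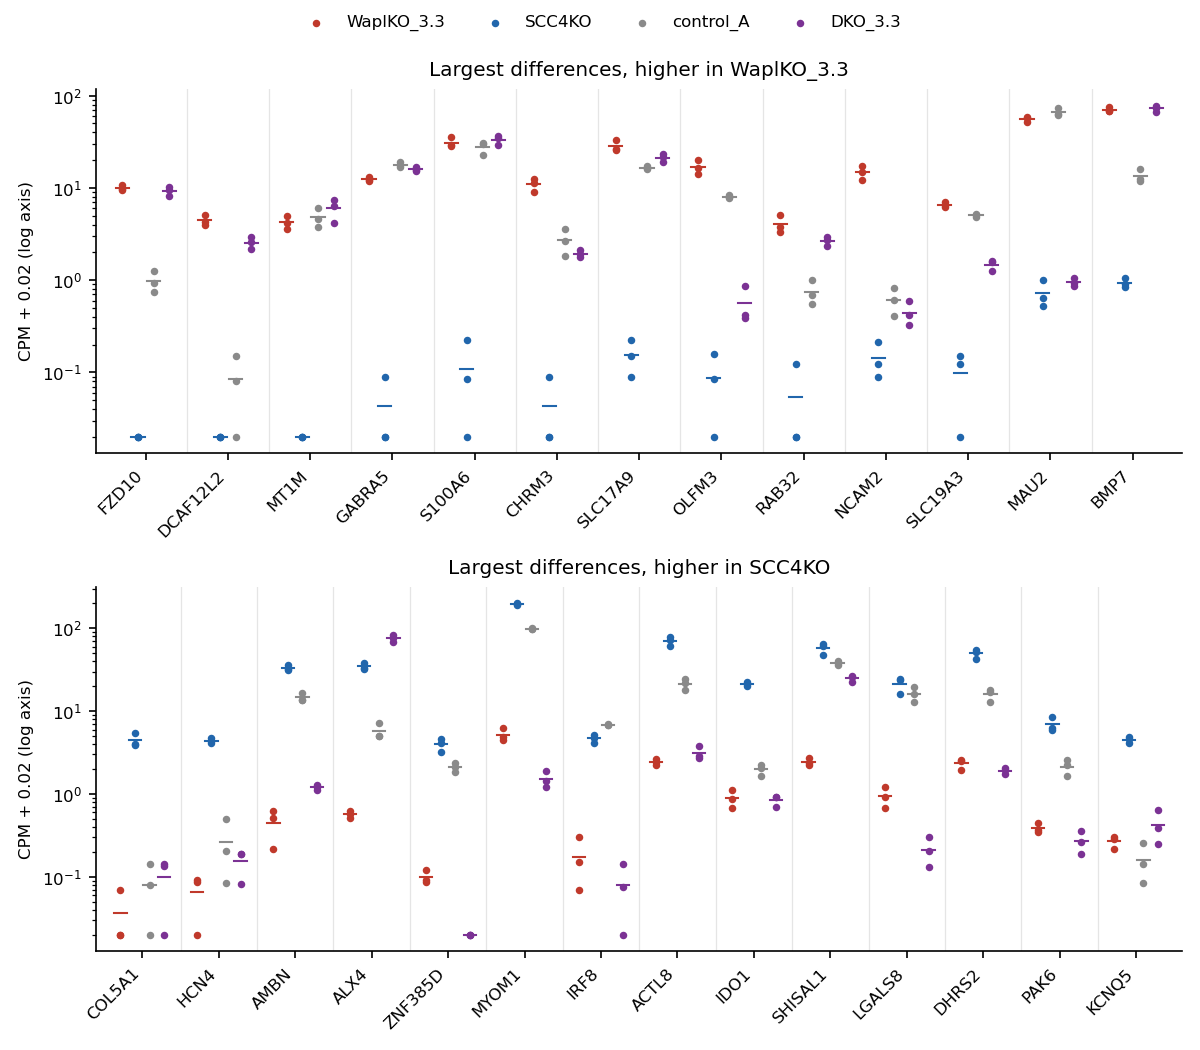
CPM plus 0.02 on a log axis for each sample of WaplKO_3.3 (red), SCC4KO (blue), control_A (the HAP1 controls of set A, grey) and DKO_3.3 (purple), for 13 of the 14 genes most in favour of WaplKO_3.3 (top) and the 14 most in favour of SCC4KO (bottom), with bars at the group means. The controls lie between the clones for BMP7 and ALX4, beside WaplKO_3.3 for GABRA5 and S100A6, and beside SCC4KO for IRF8 and LGALS8.

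The controls of set A show which clone had moved. The comparisons with them share those controls and reuse the samples of the direct comparison, so the values are only set side by side. WaplKO_3.3 differed from the controls in 1008 of 12489 genes (8.07%) and SCC4KO in 1186 of 12503 (9.49%). The replicate numbers of SCC4KO and these controls varied together, and with the number as a block the count for SCC4KO was 5754. Of the 14 genes most in favour of WaplKO_3.3, 9 were higher and 1 was lower in WaplKO_3.3 than in the controls, beside 4.17% and 3.9% of all genes tested, and 11 of the 11 that could be tested were lower in SCC4KO, beside 4.03%, with MAU2, the gene cut in SCC4KO, among them. Of the 14 most in favour of SCC4KO, 11 of the 11 that could be tested were lower in WaplKO_3.3 than in the controls, and 12 were higher in SCC4KO, beside 5.45%. Since the genes were chosen for the distance between the clones, these counts describe where the distance arose and are not evidence of it.

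Several genes were close to 0 in SCC4KO and much nearer to the controls in WaplKO_3.3. S100A6 held 22.5 to 30.9 CPM in the controls, with a log2 fold change of 0.14 (adjusted p = 0.777) in WaplKO_3.3, while SCC4KO was lower (adjusted p = 8.2e-07) with 3 counts over its samples. SLC19A3 held 4.81 to 5.14 CPM in the controls, with a value of 0.36 (adjusted p = 0.289) in WaplKO_3.3. GABRA5 held 16.8 to 18.9 CPM in the controls and was lower in both clones, by a log2 fold change of -0.55 (adjusted p = 0.0346) in WaplKO_3.3 and to 1 count over the samples of SCC4KO. A further group moved in opposite directions in the clones. BMP7 held 11.9 to 15.9 CPM in the controls, rose by 2.37 in WaplKO_3.3 and fell by 3.85 in SCC4KO on the log2 scale. SLC17A9 rose by 0.78 and fell by 6.94. CHRM3 and OLFM3 rose in WaplKO_3.3 by 2.00 and 1.06 and were lower in SCC4KO, with adjusted p-values of 0.00013 and 2.15e-06 and at most 3 counts over its samples. NCAM2 differed from this pattern, with 0.391 to 0.801 CPM in the controls and a rise of 4.58 in WaplKO_3.3.

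On the SCC4KO side, MYOM1 held 96.6 to 99.7 CPM in the controls, fell by 4.25 in WaplKO_3.3 and rose by 0.98 in SCC4KO. AMBN (-5.04 and 1.18), ALX4 (-3.39 and 2.59), ACTL8 (-3.15 and 1.71), DHRS2 (-2.80 and 1.63) and PAK6 (-2.53 and 1.70) were likewise lower than the controls in WaplKO_3.3 and higher in SCC4KO. LGALS8 and IRF8 were lower in WaplKO_3.3 (-4.15 and -5.52), with values of 0.39 (adjusted p = 0.285) and -0.55 (adjusted p = 0.0684) in SCC4KO. With the replicate number as a block these small differences passed the threshold (adjusted p = 0.00479 for LGALS8 and 0.00666 for IRF8). HCN4 and KCNQ5 were under 0.5 CPM in every control and rose in SCC4KO by 4.09 and 4.88. COL5A1 had 3 counts over the controls and was also higher in SCC4KO (adjusted p = 1.73e-05). IDO1 rose by 3.42 in SCC4KO and fell by 1.16 in WaplKO_3.3.

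The double knockout DKO_3.3, which lacks both factors, followed neither WaplKO_3.3 nor SCC4KO throughout these genes. FZD10 (8.17 to 10.3 CPM), BMP7 (66.5 to 77.9 CPM), S100A6 (29.2 to 36 CPM) and GABRA5 (15.2 to 16.8 CPM) stood at levels like those of WaplKO_3.3, the clone from which the double knockout was made. MYOM1 (1.19 to 1.9 CPM), IRF8 (0 to 0.123 CPM), LGALS8 (0.113 to 0.284 CPM) and ACTL8 (2.73 to 3.73 CPM) were low in it as in WaplKO_3.3. OLFM3 (0.369 to 0.853 CPM) and NCAM2 (0.307 to 0.569 CPM) were by contrast far under WaplKO_3.3. ALX4 had its highest level of all groups of set A in DKO_3.3, at 67.9 to 83.2 CPM.

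Of the 6 tested genes of the cohesin ring and its STAG subunits, RAD21 was higher in WaplKO_3.3 (613, 572 and 484 CPM against 366, 463 and 451 CPM; 0.38 ± 0.13, adjusted p = 0.0446) and STAG1 was higher in SCC4KO (79.5, 71 and 59.2 CPM against 141, 166 and 156 CPM; -1.15 ± 0.14, adjusted p = 2.29e-05). The RAD21 difference was close to the threshold and was not called after the GC correction. SMC1A (0.23 ± 0.15), SMC3 (0.36 ± 0.13) and STAG2 (-0.07 ± 0.12) were not called. Among the 13 loading, release and cohesion factors only MAU2, WAPL and the acetyltransferase ESCO2 (0.68 ± 0.20, adjusted p = 0.027) were called, and NIPBL, the partner of SCC4, had a value of 0.08 ± 0.14. The GC correction gave 2 of these factors as higher in SCC4KO. Of the 15 condensin and SMC5/6 genes, 4 were higher in WaplKO_3.3 (26.7%, beside 10.8% of all genes tested; 1 to 6 over the alternatives), led by NCAPG2 (0.63 ± 0.16) and SMC5 (0.58 ± 0.15), and none was higher in SCC4KO. None of the 13 tested members of the list of CTCF and other architectural factors was called, and CTCF itself stood at 129 ± 12.5 CPM (SD, n = 3) against 140 ± 3.02 CPM (SD, n = 3). With the GC correction 4 members of that list were higher in SCC4KO.

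Gene clusters that depend on long-range contacts for the choice of their members were examined next. The clustered protocadherins are neuronal cell surface proteins, each with its own first exon; the alpha and gamma genes share their last exons, so reads in those exons could not be assigned to a member and the counts are uncertain. Of 50 protocadherin genes in the files 16 were tested, 6 were higher in WaplKO_3.3 (37.5%) and 2 in SCC4KO (12.5%), against 10.8% and 12% of all genes tested. PCDHAC2 had 5.28, 5.52 and 3.79 CPM in WaplKO_3.3 and 0.845, 0.407 and 0.829 CPM in SCC4KO (2.73 ± 0.28, adjusted p = 5.92e-06). PCDHB2 (1.60 ± 0.23), PCDHB11 (1.33 ± 0.39) and PCDHB13 (1.23 ± 0.28) were also higher in WaplKO_3.3. At the gamma end of the cluster the direction was the other, with PCDHGA10 at -1.67 ± 0.20 and PCDHGC3 at -1.23 ± 0.17. Because the rest of the members had few reads, the 16 are not the whole family.

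HOX genes, the homeodomain factors that set position along the body axis, leaned to SCC4KO. Of 26 tested, 8 were higher in SCC4KO (30.8%) and 1 in WaplKO_3.3 (3.85%), beside 12% and 10.8% of all genes tested. The median log2 fold change was -0.34, beside 0.01 for all genes tested. After the GC correction, which raised the calls over all genes, the counts were 8 and 2. The summed level of the list was 366 to 383 CPM in WaplKO_3.3, 454 to 500 CPM in SCC4KO and 414 to 435 CPM in the controls of set A. HOXB9 had 1.44, 1.63 and 1.59 CPM in WaplKO_3.3 and 11.5, 11.9 and 9.67 CPM in SCC4KO (-2.83 ± 0.20, adjusted p = 8.55e-08). HOXB6 (-3.13 ± 0.27), HOXD3 (-1.47 ± 0.19) and HOXD13 (-1.02 ± 0.15) lay in the same direction.

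Adhesion and guidance genes were called often and in both directions. Of 33 tested neural and synaptic adhesion molecules, 10 were higher in WaplKO_3.3 (30.3%, beside 10.8% of all genes tested) and 11 in SCC4KO (33.3%, beside 12%). Besides NCAM2, the former included NRCAM (15.9, 17.4 and 12.7 CPM against 1.11, 2.04 and 1.59 CPM; 3.31 ± 0.23), CADM1 (58.9, 53.1 and 47 CPM against 6.44, 7.33 and 9.47 CPM; 2.77 ± 0.18) and CNTNAP2 (2.38 ± 0.20). The latter included the teneurin TENM2 (-3.51 ± 0.42), SDK1 (3.99, 4.38 and 4.92 CPM against 28.7, 25.5 and 25.1 CPM; -2.58 ± 0.17), NLGN3 (-2.40 ± 0.33) and NCAM1 (-1.91 ± 0.34). The paralogs NCAM1 and NCAM2 thus lay on opposite sides.

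Of 60 tested axon guidance ligands and receptors, 13 were higher in WaplKO_3.3 (21.7%, beside 10.8% of all genes tested) and 20 in SCC4KO (33.3%, beside 12%). Among the ligands, the secreted semaphorins SEMA3A (38.5, 40 and 36.2 CPM against 3.45, 3.87 and 3.45 CPM; 3.41 ± 0.16, adjusted p = 1.72e-09) and SEMA3C (3.99 ± 0.44) were higher in WaplKO_3.3, and the membrane-bound SEMA5A was higher in SCC4KO (-2.64 ± 0.29). Among the plexins, which are semaphorin receptors, PLXNB3 (3.19 ± 0.46) was higher in WaplKO_3.3 and PLXNA2 (-1.44 ± 0.20) in SCC4KO. Among the Eph receptor kinases, EPHA7 (2.26 ± 0.22) was higher in WaplKO_3.3. EPHA5 (1.89, 1.56 and 1.06 CPM against 18.1, 23.5 and 16.9 CPM; -3.66 ± 0.22) and EPHA3 (11.1, 12.7 and 9.23 CPM against 48.2, 60.1 and 57.8 CPM; -2.33 ± 0.16) were higher in SCC4KO. Members of each family were therefore found on both sides.

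Extracellular matrix genes divided in a similar way, with 14 of 55 higher in WaplKO_3.3 (25.5%, beside 10.8% of all genes tested) and 12 in SCC4KO (21.8%, beside 12%). With the GC correction the counts were 16 and 20, so that the larger count lay on the side of SCC4KO. The proteoglycan SPOCK3 (15, 16.4 and 13.4 CPM against 0.585, 1.63 and 0.622 CPM; 4.08 ± 0.27) and the matricellular protein THBS1 (3.92 ± 0.34) led the former, and the metalloprotease TLL1 (2.13 ± 0.20) followed. After COL5A1, the latter held COL9A1 (-2.15 ± 0.34), the proteoglycan VCAN (-1.39 ± 0.20) and the laminin chain LAMB2 (56.4, 69.3 and 81.9 CPM against 204, 170 and 168 CPM; -1.39 ± 0.16). Of 15 tested integrins, 1 was higher in WaplKO_3.3 (6.67%), ITGA4 (120, 135 and 110 CPM against 37.6, 45 and 50.4 CPM; 1.45 ± 0.14), and 2 in SCC4KO (13.3%), ITGB8 and ITGA2B, while the GC correction gave 3 and 4. Of 9 classical cadherins and catenins, CDH6 (1.43 ± 0.16) and CDH3 (1.29 ± 0.32) were higher in WaplKO_3.3 (22.2%), while CDH2, CDH10 and CTNND1 were higher in SCC4KO (33.3%) by 0.52 or less. Of 12 S100 proteins and annexins, 3 were higher in WaplKO_3.3 (25%), namely S100A6, ANXA1 (0.83 ± 0.14) and ANXA2 (0.44 ± 0.12). ANXA1 stood at 332, 393 and 356 CPM in WaplKO_3.3, 191, 242 and 173 CPM in SCC4KO and 31.8 ± 1.12 CPM (SD, n = 3) in the set A controls, and it was higher than in the controls in both clones, by 3.48 and 2.65 on the log2 scale. Among 9 intermediate filament genes, SYNM was higher in WaplKO_3.3 (0.87 ± 0.19) and NES, the filament of neural progenitors, in SCC4KO (-0.90 ± 0.13). Each was 11.1% of the list, near the shares of all genes tested, while the GC correction gave 5 and 1.

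**Figure D3:**
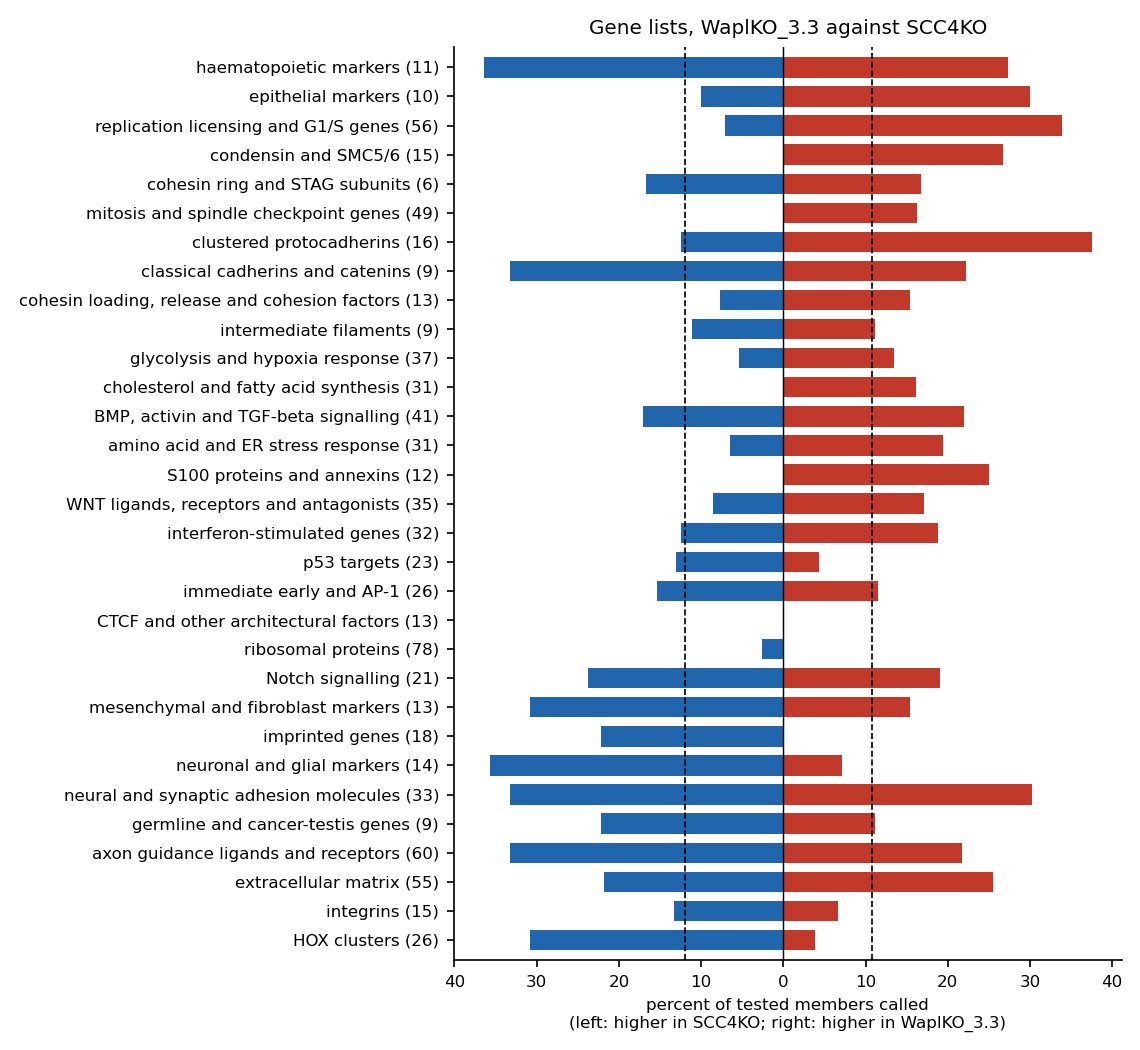
Percent of the tested members of each of the 31 gene lists that were higher in WaplKO_3.3 (red, right) or in SCC4KO (blue, left), ordered by median log2 fold change, with the number tested in brackets and dashed lines at the shares for all genes tested (10.8% and 12%). HOX genes extend mainly to the left and replication genes mainly to the right, while adhesion, guidance and matrix lists pass both lines.

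Ligands, receptors and inhibitors of the developmental signalling pathways were considered in turn. In BMP, activin and TGF-beta signalling, 9 of 41 genes were higher in WaplKO_3.3 (22%, beside 10.8% of all genes tested) and 7 in SCC4KO (17.1%, beside 12%). The ligands BMP7 and TGFB2 (16.6, 17 and 13.9 CPM against 3.77, 5.19 and 6.36 CPM; 1.63 ± 0.20) and the receptor ACVR1C (2.89 ± 0.28) were on the WaplKO_3.3 side. The ligands GDF3 (0.399, 0.919 and 0.664 CPM against 7.09, 6.72 and 6.63 CPM; -3.41 ± 0.26) and INHBB (-1.25 ± 0.17), the antagonist NOG (-1.26 ± 0.20) and the target gene ID2 (13, 12.3 and 12.5 CPM against 30.8, 32.1 and 30 CPM; -1.30 ± 0.14) were on the SCC4KO side. Ligands of the family were thus found on both sides.

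Of 35 WNT ligands, receptors and antagonists, 6 were higher in WaplKO_3.3 (17.1%, beside 10.8% of all genes tested) and 3 were called in the other direction (8.57%, beside 12%). The former count was 10 with the GC correction and ranged from 2 to 10 over the alternatives. WNT5A had 17.3, 19.8 and 12.6 CPM in WaplKO_3.3, 0.715, 0.814 and 1.31 CPM in SCC4KO and 24.3 ± 7.23 CPM (SD, n = 3) in the set A controls (4.09 ± 0.26, adjusted p = 3.64e-08). WNT7B (2.93 ± 0.53) and WNT10B (0.74 ± 0.19) were also higher in WaplKO_3.3. DKK3 (-0.69 ± 0.16), LEF1 (-0.60 ± 0.16) and WNT5B (-0.55 ± 0.18) were higher in SCC4KO by smaller amounts. Of 21 Notch pathway genes, 4 were higher in WaplKO_3.3 (19%, beside 10.8%), including the ligand DLL4 (1.09 ± 0.29). Another 5 were higher in SCC4KO (23.8%, beside 12%), including the ligand DLL1 (-1.01 ± 0.16), the receptor NOTCH1 (-0.86 ± 0.18) and the target HEYL (-0.94 ± 0.20).

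Replication genes leaned to WaplKO_3.3. Of 56 replication licensing and G1/S genes, 19 were higher in WaplKO_3.3 (33.9%) and 4 in SCC4KO (7.14%). The shares of all genes tested were 10.8% and 12%, and the median log2 fold change of the list was 0.29. The summed level of the list was 9254 to 9716 CPM in WaplKO_3.3, 7366 to 7675 CPM in SCC4KO and 8713 to 9221 CPM in the controls of set A. The groups did not overlap, and SCC4KO lay under the controls. MCM10, a replication initiation factor, had 132, 106 and 89 CPM against 49.4, 56.5 and 77 CPM (0.83 ± 0.18, adjusted p = 0.00379). GMNN, which restrains licensing (0.69 ± 0.13), and ORC2, a subunit of the origin recognition complex (0.62 ± 0.16), were of similar size. The 4 exceptions were not replication enzymes but the cyclins CCND1 (-0.74 ± 0.17) and CCND2 (-0.79 ± 0.20) and the CDK inhibitors CDKN2B (-1.02 ± 0.29) and CDKN2C (-0.73 ± 0.12). CCND1 was high in both clones, at 17.7 to 29.5 CPM in WaplKO_3.3 and 36.7 to 41.5 CPM in SCC4KO beside 5.29 ± 0.795 CPM (SD, n = 3) in the controls, which it exceeded by 2.12 and 2.86 on the log2 scale. The count of members higher in WaplKO_3.3 ranged from 10 to 32 over the alternatives and was 32 with the GC correction. Over all genes tested that correction raised the genes higher in WaplKO_3.3 from 1350 to 2023.

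Of 49 mitosis and spindle checkpoint genes, 8 were higher in WaplKO_3.3 (16.3%, beside 10.8% of all genes tested; 4 to 10 over the alternatives) and none in SCC4KO (1 with the GC correction), so that the share called in all was below the 22.8% of all genes. The checkpoint kinases BUB1 (267, 248 and 231 CPM against 124, 161 and 160 CPM; 0.75 ± 0.13) and BUB1B (0.59 ± 0.13) and the kinetochore genes DSN1 (0.78 ± 0.24) and SPC25 (0.55 ± 0.15) were among them. The summed level was 8409 to 8728 CPM in WaplKO_3.3, 7187 to 7853 CPM in SCC4KO and 8272 to 8335 CPM in the controls.

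In cholesterol and fatty acid synthesis 5 of 31 genes were higher in WaplKO_3.3 (16.1%) and none in SCC4KO, beside 10.8% and 12% of all genes tested. MSMO1 (1.00 ± 0.18), ELOVL6 (0.79 ± 0.15) and INSIG1 (0.73 ± 0.14) led, and 9 were higher in WaplKO_3.3 with the GC correction. In glycolysis and the hypoxia response 5 of 37 were higher in WaplKO_3.3 (13.5%), including ADM (1.17 ± 0.17). NDRG1 (-1.62 ± 0.20) and SLC2A3 (-0.82 ± 0.18) were higher in SCC4KO (5.41%), and the counts were 11 and 3 with the GC correction. In the amino acid and ER stress response 6 of 31 were higher in WaplKO_3.3 (19.4%), led by the cystine transporter SLC7A11 (1.16 ± 0.20), and 2 in SCC4KO (6.45%). Of 78 ribosomal protein genes none was higher in WaplKO_3.3 and 2 (2.56%) were higher in SCC4KO, by 0.40 and 0.35 (RPL15 and RPL3). The count higher in SCC4KO was 5 with the GC correction and ranged from 0 to 16 over the alternatives.

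Interferon-stimulated genes were called in both directions, with 6 of 32 higher in WaplKO_3.3 (18.8%, beside 10.8% of all genes tested) and 4 in SCC4KO (12.5%, beside 12%). The GC correction gave 9 and 7. The immunoproteasome subunit PSMB8 (29.8, 33 and 39.3 CPM against 4.94, 5.09 and 3.73 CPM; 2.90 ± 0.19), SAMD9 (1.48 ± 0.25) and OAS2 (1.24 ± 0.21) were higher in WaplKO_3.3. The genes higher in SCC4KO included STAT2 (-0.74 ± 0.15) and the class I genes HLA-B (-0.59 ± 0.13) and HLA-C (-0.63 ± 0.15), near-identical genes whose reads may be split between them. Of 26 immediate early and AP-1 genes, EGR2 (2.08 ± 0.26), ETV4 (1.83 ± 0.23) and FOSL2 (0.90 ± 0.18) were higher in WaplKO_3.3, and JUN (-1.41 ± 0.19), EGR1 (-0.73 ± 0.21), EGR3 (-0.84 ± 0.25) and JUND (-0.55 ± 0.15) in SCC4KO. The shares of this list, 11.5% and 15.4%, were near those of all genes tested. With the GC correction EGR3 (adjusted p = 0.057) and JUND (adjusted p = 0.0544) lost their calls, and 5 members were higher in WaplKO_3.3 and 2 in SCC4KO. Of 23 p53 targets, CDKN1A (1.19 ± 0.20) was higher in WaplKO_3.3 (4.35%), and TP53I3 (-1.58 ± 0.17), BTG2 (-0.67 ± 0.13) and TNFRSF10B (-0.44 ± 0.12) were higher in SCC4KO (13%), and the GC correction gave 2 and 5. Of 18 imprinted genes, none was higher in WaplKO_3.3 and 4 (22.2%) in SCC4KO (1 and 6 with the GC correction), including the growth factor IGF2 (2.69, 1.98 and 2.52 CPM against 7.41, 6.41 and 7.88 CPM; -1.59 ± 0.20), its receptor IGF2R (-0.79 ± 0.12) and the IGF2 neighbours KCNQ1 (-1.56 ± 0.24) and SLC22A18 (-0.95 ± 0.24). Of 9 tested germline and cancer-testis genes, PRAME (0.83 ± 0.17) was higher in WaplKO_3.3 (11.1%), and ACTL8 and DAZL (-0.50 ± 0.14) in SCC4KO (22.2%).

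Markers of cell lineages were read against the origin of the line. Of 39 haematopoietic markers 11 were tested and 14 had no count in these 6 samples, among them the leukocyte marker PTPRC and the myeloid genes SPI1 and MPO. TAL1, a haematopoietic transcription factor, had 80.5, 69.3 and 68.1 CPM in WaplKO_3.3, 4.68, 4.68 and 3.8 CPM in SCC4KO, and 72.9 ± 5.62 CPM (SD, n = 3) in the set A controls (4.05 ± 0.17, adjusted p = 3.11e-10). RUNX1 (1.33 ± 0.22) was also higher in WaplKO_3.3, and GATA2 (-0.57 ± 0.14) and CEBPA (-0.60 ± 0.15) in SCC4KO. The beta-globin gene HBB had no count in the controls of set A, 1.69, 1.91 and 1.2 CPM in WaplKO_3.3 and 8.26, 8.35 and 5.87 CPM in SCC4KO (-2.22 ± 0.23), and 5.94 CPM on average in DKO_3.3. Summed over the list, haematopoietic markers reached 168 to 173 CPM in WaplKO_3.3, 121 to 129 CPM in SCC4KO and 170 to 184 CPM in the controls of set A. Without TAL1, a choice made after its values were seen, the order of the clones turned, with 92.8 to 103 CPM in WaplKO_3.3, 117 to 125 CPM in SCC4KO and 102 to 105 CPM in the controls. Of the 11 tested, 3 were higher in WaplKO_3.3 (27.3%, beside 10.8% of all genes tested) and 4 in SCC4KO (36.4%, beside 12%). The GC correction raised the members higher in WaplKO_3.3 from 3 to 5.

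Of 14 tested neuronal and glial markers, 1 was higher in WaplKO_3.3 (7.14%, beside 10.8% of all genes tested, and 2 with the GC correction), GAD1 (2.16 ± 0.26). Another 5 were higher in SCC4KO (35.7%, beside 12%), including NEUROG2 (-1.60 ± 0.15), SOX1 (-1.67 ± 0.19) and PAX6 (-0.93 ± 0.17). ELAVL4 and NEUROD1 had no count in either clone. Of 10 epithelial markers, 3 were higher in WaplKO_3.3 (30%, and 6 with the GC correction), including GRHL1 (1.17 ± 0.18), and OCLN (-0.99 ± 0.25) was higher in SCC4KO (10%), while CDH1 and KRT19 had no count. Of 13 mesenchymal markers, TWIST1 (1.11 ± 0.17) and COL1A1 (0.72 ± 0.16) were higher in WaplKO_3.3 (15.4%), and 4 were higher in SCC4KO (30.8%), including TAGLN (-1.93 ± 0.28) and ACTA2 (-0.85 ± 0.17). The summed mesenchymal level was 703 to 778 CPM in WaplKO_3.3 and 887 to 908 CPM in SCC4KO, and COL1A2 had no count.

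Some of the genes that differed lay beside each other. Along the chromosomes, 81 runs of at least 3 neighbouring tested genes were called in the same direction, the longest with 7 genes. These runs held 284 genes, or 9.98% of those called. The 22.8% of all tested genes that were called is another measure and no background for this share. The share expected in runs without clustering was not computed. In size, 16 runs had a median of at least 1 on the log2 scale. These 16 were picked out after their values were seen, and are described without a test. On chromosome 1, CHRM3 lay near FMN2 and RGS7, which were also higher in WaplKO_3.3. FMN2, an actin nucleator of the formin family, had 9.17 CPM on average in WaplKO_3.3, 8.03 CPM in the controls of set A, 10.2 CPM in DKO_3.3 and 0.709 CPM in SCC4KO (3.68, adjusted p = 3.41e-08). RGS7, a regulator of G protein signalling, averaged 0.961 CPM in WaplKO_3.3, 0.0801 CPM in the controls of set A and 0.125 CPM in SCC4KO (2.84, adjusted p = 0.000718). CHRM3 and FMN2 were thus lower in SCC4KO than in the controls. RGS7 was low in the controls too, and rose by 3.40 in WaplKO_3.3 over them (adjusted p = 0.000792). RYR2 before this run (0.28, adjusted p = 0.245) and FH after it (0.22, adjusted p = 0.19) were not called, while OPN3 beyond FH was higher in WaplKO_3.3 (1.04, adjusted p = 0.000275). RNA levels alone cannot tell a change in the DNA of a clone from a change in expression.

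Further runs lay on chromosomes 5, 17, X and 4. On chr5:140346055-140483411, PCDHAC2, PCDHB2 and PCDHB3 (0.74) were higher in WaplKO_3.3, while PCDHA3, whose annotation spans PCDHAC2, (0.42, adjusted p = 0.153) and PCDHB5 after them (-0.09, adjusted p = 0.703) were not called. On chr17:46673113-46806112, HOXB6, HOXB9 and HOXB13 (-0.90) were higher in SCC4KO, while HOXB2, HOXB3 and HOXB4 in the same cluster had values of -0.04, 0.05 and 0.03 and were not called. The annotations of HOXB3 and HOXB6 overlap, so their reads may be split uncertainly, and HOXB5, HOXB7 and HOXB8 had too few reads to be tested. On chrX:37430822-38548174, 7 neighbours from LANCL3 (2.63) through the blood group gene XK (1.63), the phagocyte oxidase subunit CYBB (1.88), DYNLT3, SRPX and RPGR to TSPAN7 (1.09) were higher in WaplKO_3.3. TMEM47 nearby was higher still, averaging 81.2 CPM in WaplKO_3.3 and 3.78 CPM in SCC4KO (4.42, adjusted p = 2.92e-10), with the uncalled PRRG1 between them. Another 7 neighbours on chr4:165991760-169240034, including MSMO1, CPE, TLL1 and SPOCK3, had a median of 0.94.

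Towards SCC4KO, a run on chr7:119913229-120937496 held the potassium channel gene KCND2, TSPAN12, ING3 and CPED1. KCND2 averaged 1.1 CPM in WaplKO_3.3 and 14 CPM in SCC4KO (-3.71, adjusted p = 2.09e-07), and CPED1 averaged 0.281 and 1.98 CPM (-2.74). A run on chr12:54849734-54982443 held GTSF1, a germline small RNA pathway gene, with the phosphodiesterase PDE1B and PPP1R1A. GTSF1 averaged 12.1 CPM in WaplKO_3.3, 130 CPM in SCC4KO and 95.5 CPM in the controls of set A (-3.42, adjusted p = 3.43e-10). On chr21:19273580-27089874 the run of CHODL (3.19), NCAM2, MRPL39 (0.39) and JAM2 (0.91) was higher in WaplKO_3.3. MRPL39 was not called after the GC correction, and neither was DYNLT3 in the run on the X chromosome, while the remaining genes of the 16 runs stayed past the threshold.

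**Figure D4:**
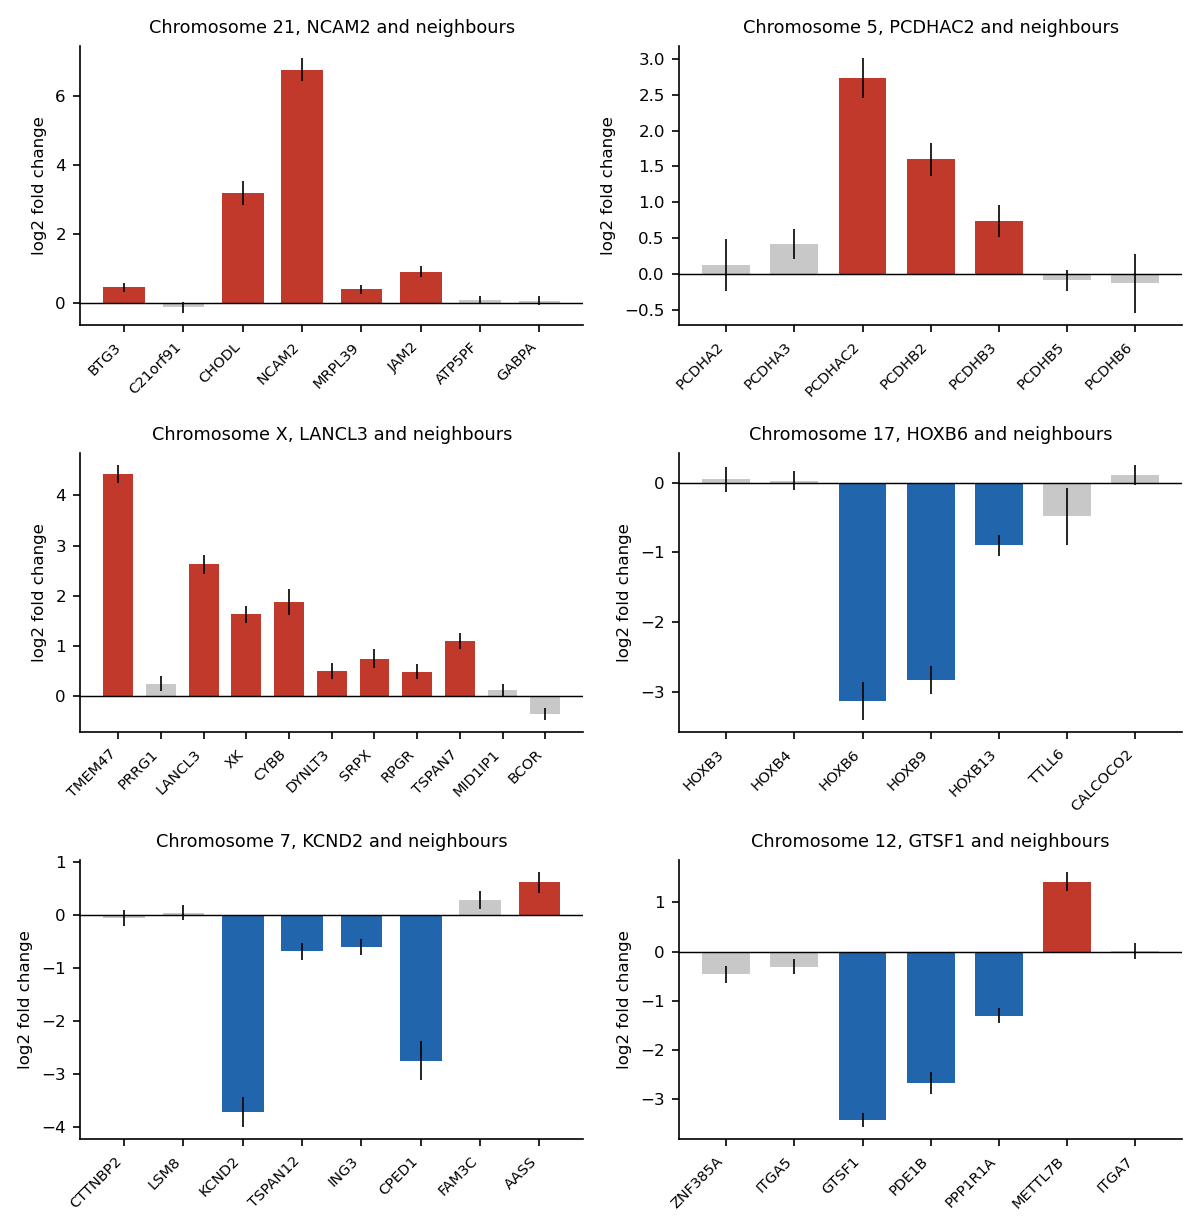
Log2 fold change of WaplKO_3.3 over SCC4KO with its SE for 6 of the 16 runs of neighbouring genes, in chromosome order with the 2 nearest tested genes on each side, for genes higher in WaplKO_3.3 (red), higher in SCC4KO (blue) or not called (grey); each panel has its own y axis. In the run of NCAM2 the bars of CHODL and NCAM2 exceed 3, while MRPL39 and JAM2 stay under 1.

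Long genes were called more often than short ones. Of 2222 tested genes under 10 kb in the annotation 18.7% were called, and the share was 19.9% from 10 to 50 kb, 25.8% from 50 to 200 kb, 32.5% from 200 to 500 kb and 49.8% among the 201 genes of 500 kb or more, beside 22.8% overall. The longest class divided into 43 genes higher in WaplKO_3.3 and 57 higher in SCC4KO. Its median difference was 0.51 in size, beside 0.22 in the class under 10 kb, and its median level was 3.54 log2 CPM, beside 4.68. Among the named genes NCAM2, CHRM3, CNTNAP2, SDK1, KCNQ5 and ZNF385D are long genes of this kind. The share in the longest class was 59.2% with the GC correction (33.3% of all genes), 41.2% with DESeq2 (21.1%) and 41.9% among genes with at least 10 counts in every sample (20.2%), so the order of the longest class and all genes was the same in these alternatives.

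The medians of whole chromosomes differed little, whereas the shares of genes called varied more. The median log2 fold change ran from -0.18 on chromosome 22 to 0.16 on chromosome 4. On chromosome 4, 106 of 461 genes (23%) were higher in WaplKO_3.3, beside 10.8% of all genes tested and 5.07% on chromosome 22. On chromosome 22, 57 of 296 (19.3%) were higher in SCC4KO, beside 12% of all genes tested and 11.5% on chromosome 4. With the GC correction the medians of these chromosomes were 0.02 and -0.07, and the part of GC content in the difference was not tested.

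The separate ΔWAPL clone WaplKO_1.14 and the controls of set B share no sample with the comparison and show which differences were also found in another ΔWAPL clone. In that comparison 2536 of 12636 genes (20.1%) were called, 8.7% higher and 11.4% lower in WaplKO_1.14. Among genes tested in both, 322 of the 1337 higher in WaplKO_3.3 than in SCC4KO (24.1%) were higher in WaplKO_1.14 than in its controls, beside 8.65% of all, and 159 (11.9%) were lower, beside 10.8%. Of the 1430 higher in SCC4KO, 321 (22.4%) were lower in WaplKO_1.14 and 147 (10.3%) were higher. With the GC correction the genes higher in WaplKO_3.3 held 497 that were higher and 264 that were lower in WaplKO_1.14. Those higher in SCC4KO held 415 that were lower and 350 that were higher, counts much closer to each other than 321 and 147. That correction also raised the genes called in all, to 2023 higher in WaplKO_3.3, 2135 higher in SCC4KO and 3449 between WaplKO_1.14 and its controls. The corrected shares of all genes higher and lower in WaplKO_1.14 are not given here. Read from the other side, the 322 genes were 30.1% of the 1068 higher in WaplKO_1.14. Across all 12349 genes the fold changes of the comparisons had a Spearman rho of 0.22, given as a description across genes, which are not independent replicates.

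The leading genes were divided in this respect. NCAM2 rose by 5.22 in WaplKO_1.14 (22.2 to 22.8 CPM beside 0.394 to 0.752 CPM in its controls), CHRM3 by 2.38 and OLFM3 by 0.81. AMBN fell by 7.37, ACTL8 by 4.71, IRF8 by 4.15 and DHRS2 by 3.99. These genes moved the same way in the ΔWAPL clones. By contrast S100A6, which held 28.1 to 35.8 CPM in WaplKO_3.3, had no count in WaplKO_1.14 beside 21.2 to 24.5 CPM in its controls. BMP7 was at 0.53 to 0.771 CPM in WaplKO_1.14 and 12.2 to 14.9 CPM in its controls, a fall of 4.41, and GABRA5 fell by 6.08. PAK6 rose by 2.23 in WaplKO_1.14 but fell in WaplKO_3.3, MYOM1 had a value of -0.15 (adjusted p = 0.0833), and LGALS8 one of 0.40 (adjusted p = 0.08). Of the 14 genes most in favour of WaplKO_3.3, 13 could be tested in WaplKO_1.14, and 4 were higher and 8 were lower than in its controls. Of the 14 most in favour of SCC4KO, 12 could be tested, and 7 were lower and 1 was higher. Over all genes tested in WaplKO_1.14, 8.7% were higher and 11.4% were lower. TAL1, which stood at the level of the controls in WaplKO_3.3, fell by 4.33 in WaplKO_1.14 and had a log2 fold change of -4.07 in SCC4KO over the controls of set A.

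**Figure D5:**
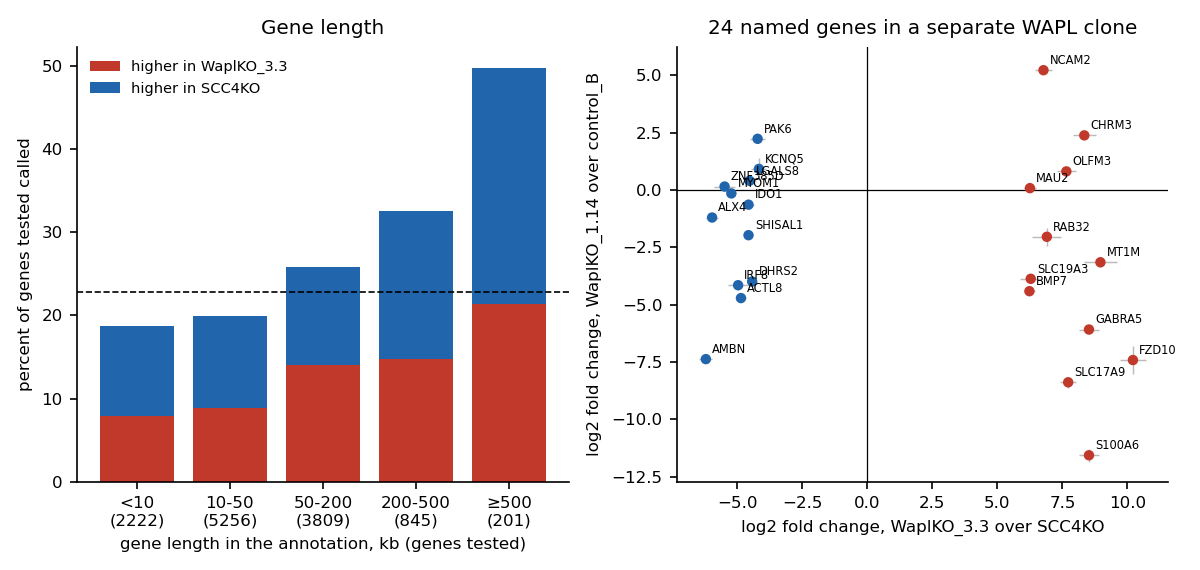
Left, percent of tested genes called in each class of gene length in kb, split into higher in WaplKO_3.3 (red) and higher in SCC4KO (blue), with a dashed line at 22.8%; the longest class reaches 49.8%. Right, log2 fold change of WaplKO_3.3 over SCC4KO (x axis) against that of WaplKO_1.14 over control_B (y axis), with SE, for 24 leading genes tested in both; NCAM2 and CHRM3 lie above 0 on both axes, and S100A6, SLC17A9 and FZD10, which were at or near 0 CPM in WaplKO_1.14, lie below 0 on the y axis at fitted values that depend on the prior count.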

How the data were processed

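RNA-seq read counts per gene were deposited by the authors as whole-number HTSeq counts without normalization, 1 file per sample, from strand-specific TruSeq libraries of polyadenylated RNA. Per the labels the reads were aligned with TopHat2 2.0.9 to hg19 and compared with DESeq2 1.10.1, while the methods name another TopHat version, and the annotation is not given in the sources used here. HTSeq summary rows (4.97 to 5.94% of reads without a gene in the 6 samples compared) stayed out of library sizes. Gene symbols and positions came from GRCh37 and GENCODE v44lift37, which held 96.6% of identifiers.

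A prior count of 2 entered only the log2 CPM used for the GC correction and for the deviations of samples from their group means. WaplKO_3.3 and SCC4KO were compared with edgeR 4.0.16 (R 4.3.3) by its quasi-likelihood test, with TMM normalization, filterByExpr and the default prior count. Benjamini-Hochberg adjustment covered all genes tested, at 0.05. The same test compared WaplKO_3.3 and SCC4KO with the controls of set A, and WaplKO_1.14 with those of set B. Whether the effect of WAPL loss differed between clones came from an interaction term over these 12 samples. The labels give the set letter for the controls alone; the deposited names of WaplKO_3.3, SCC4KO and DKO_3.3 carry the same sequencing lane as the controls of set A. Each SE is the size of the log2 change over the root of its F statistic, an approximation that is weakest for low counts. The fit of the direct comparison alone was tested on simulated counts, which held no differences between samples along GC content. No replicates were duplicates.

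Named genes were WAPL and MAU2, the 14 largest differences in each direction among called genes averaging 1 or more in log2 CPM, with a symbol and no overlap between the groups, and up to 4 called members of each list in each direction. Genes of the neighbour runs, members shown as not called or at 0, and lineage markers at 0 were named after their values were seen. Members and lists were chosen with earlier results of these data known. Replicate numbers did not pair the samples (correlations of same-numbered deviations -0.51, 0.12 and -0.44), whereas those of SCC4KO and the controls of set A varied together (0.68, 0.12 and 0.61), a pairing read from the data and not stated in the labels. Alternatives were DESeq2 (1.42.0), its size factors, 2 filters, larger fits, the replicate block, GC correction and leaving out each replicate. A count of 0 was set to a floor of 3 counts over the group for fold bounds. Some members named by this rule are not reported here.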

Additional observations from a re-analysis of the deposited data

Results flagged for a closer look

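Among the 28 leading genes, 18 differed between the ΔWAPL clones at an adjusted p of 0.05 (interaction in edgeR's quasi-likelihood test). COL5A1 and HCN4 could not be tested. The difference was the effect of WAPL loss in WaplKO_3.3 over the controls of set A minus that in WaplKO_1.14 over those of set B. Values are on the log2 scale in all that follows. These genes were chosen for their distance from SCC4KO in WaplKO_3.3 samples that also enter this difference. The share of all genes passing the interaction test is not given here, so the count of 18 is only a description. The difference was positive for the receptor gene FZD10 (10.77), DCAF12L2 (10.52), the metallothionein MT1M (2.96), GABRA5 (5.55), S100A6 (11.70), SLC17A9 (9.16), RAB32 (4.50), SLC19A3 (4.25) and BMP7 (6.79). It was also positive for AMBN (2.35), ACTL8 (1.58) and DHRS2 (1.21), which fell in both ΔWAPL clones and fell further in WaplKO_1.14. It was negative for ALX4 (-2.16), ZNF385D (-4.73), MYOM1 (-4.08), SHISAL1 (-2.02), LGALS8 (-4.54) and PAK6 (-4.73). FZD10, DCAF12L2 and S100A6 had no count and SLC17A9 at most 1 count per sample in WaplKO_1.14, so that their fitted differences depend on the prior count. The clones were compared with different controls, and set and clone cannot be told apart in this difference.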

How the results depend on the processing

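The number of genes called between WaplKO_3.3 and SCC4KO, 2846 as reported, was 1883 to 3583 when 1 replicate was left out, lowest without SCC4KO replicate 2, which also gave the fewest genes higher in WaplKO_3.3 (825 to 1814 over the replicates left out), while the genes higher in SCC4KO ranged from 1058 to 1808. In the other alternatives it was 2040 to 4158, with 2896 in DESeq2, 3618 with no filter, 2391 with at least 10 counts in every sample, 3944 in the fit over 18 samples and 4158 with the GC correction. No gene called in the main test and in an alternative changed sign. The replicate block, whose numbers do not pair the samples (1 of 3 correlated best with its own number), gave 2040 genes, and 2791 with the GC correction. For WaplKO_3.3 over the controls of set A (1008), the count was 1753 in the fit over 18 samples, 1567 with the GC correction and 686 to 1180 with a replicate left out. For SCC4KO over the controls of set A (1186) it was 1841 and 2556 in the fits over 12 and 18 samples, 2401 with the GC correction, 5754 with the replicate block, 5709 with both, and 662 to 2317 with a replicate left out, lowest without control replicate 2 and highest without control replicate 1. For WaplKO_1.14 over the controls of set B (2536) it was 4241 with the block and the GC correction and 1415 to 4820 with a replicate left out, lowest without WaplKO_1.14 replicate 1 (1473 without its replicate 3, 1523 without control replicate 1) and highest without control replicate 3. Genes higher in WaplKO_3.3 that were higher in WaplKO_1.14 (322) numbered 497 with the GC correction and 216 to 567 with a replicate left out (567 without control B replicate 3), and those lower in WaplKO_1.14 (159) numbered 264 and 115 to 173. Genes higher in SCC4KO that were higher in WaplKO_1.14 (147) numbered 350 with the GC correction, 285 with block and GC correction and 90 to 186 with a replicate left out (90 and 95 without WaplKO_1.14 replicates 1 and 3), and those lower in it (321) 224 to 405. Among the 176 named genes the direct comparison kept its sign in all 2597 alternative values, 165 of which lost the threshold. Only values near 0 reversed: MT1M in WaplKO_3.3 over its controls (0.00 without control replicate 1; -0.36 to 0.00 over replicates left out), ZNF385D in WaplKO_1.14 (-0.06 with the GC correction, -0.05 with the block added, -0.03 without control replicate 2, and -0.03 to 0.27 over replicates left out), and the clone difference of KCNQ5 (0.37, 0.03 and 0.41 without replicates 3 of control set A, 2 of control set B and 1 of WaplKO_1.14, and -0.52 to 0.41 over replicates left out). The cause was not tested.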
